A study of Mus musculus with 6 samples.

Results

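Oxidative phosphorylation depends on nuclear genes for most of its subunits, and their RNA was compared in mouse embryonic stem cells (mESC) of a *Ctrl* and a *Tet iTKO* group. Members were taken by name alone. They are the protein-coding genes whose symbols begin with Nduf, Uqcr or Atp5, the 4 genes *Sdha* to *Sdhd*, and those whose symbols begin with Cox, a digit from 4 to 8 and the letter a, b or c. Of 22380 gene identifiers, 91 met this rule, with 44 in complex I, 4 in complex II, 8 in complex III, 18 in complex IV and 17 in complex V. *Ndufa4* and its relative *Ndufa4l2* were placed with complex IV, where the NDUFA4 protein belongs in spite of its name. The name rule also brings in 8 assembly factors of complex I (*Ndufaf1* to *Ndufaf8*) and misses *Cox4i1*, *Cox4i2* and the 13 subunits encoded by mitochondrial DNA, which are given apart.

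The 6 mESC lines came from 6 embryos, 3 per group, and each line is 1 replicate. The *Ctrl* lines carried CreERT2 (wt/ki), a recombinase driven by the ubiquitin C promoter that enters the nucleus with 4-hydroxytamoxifen, and 1 copy (wt/ki) of the H2B-EGFP reporter allele Gt(ROSA)26Sor<tm1Ytchn>/J. The *Tet iTKO* lines carried both of these and floxed *Tet1/2/3* (fl/fl), so that recombination deletes exons of the 3 TET dioxygenases, the enzymes that oxidise 5-methylcytosine. All mice were on the B6 background. The *Ctrl* matings used mice of its J substrain, whereas the floxed alleles came from cells of the NTac substrain, so the groups may also differ in substrain. Both groups received the drug at 1 µM for 2.5 days followed by 4 days without it, and thus shared the treatment. Cells were grown in 2i medium over feeder fibroblasts and sorted at day 6.5 as live, CD326+, GFP+ and Thy1.2- cells. Libraries were made with Smart-Seq2, which copies polyadenylated RNA without keeping its strand, and read as pairs of 50 bases.

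The values are normalized counts, that is, reads per gene divided by a size factor for each library. They sum to between 3964824 and 4219665 per library, with 13431 to 13539 genes above 0 in *Ctrl* and 14024 to 14363 in *Tet iTKO* lines. Whole-gene values do not isolate the floxed exons, so the targeted genes cannot check the deletion here. *Tet1* had 696, 682 and 716 normalized counts across *Ctrl* lines against 787, 895 and 753 in the *Tet iTKO* ones, *Tet2* had 249, 170 and 230 against 233, 268 and 211, and *Tet3* had 28, 13 and 13 against 10, 3 and 3. Of 10 markers of mESC, 9 could be tested. *Pou5f1* was among 4 that were lower, with 5208 to 5804 normalized counts in *Ctrl* and 4318 to 4775 in *Tet iTKO* lines. *Epcam*, the gene of CD326, was among 3 that were higher, in both cases at a limma adjusted p under 0.05. After the correction for GC content and length described below, 1 of the 9 was lower (*Pou5f1*, -0.19) and 3 were higher. *Nanog* moved from -0.30 to -0.10, not called. The paper described pluripotency genes, these 2 among them, as similar in level between the groups, and the OCT4 protein as unaltered.

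Oxidative phosphorylation is carried out in the inner mitochondrial membrane. Complex I (NADH dehydrogenase) and complex II (succinate dehydrogenase) pass electrons to coenzyme Q, complex III hands them to cytochrome c, complex IV gives them to oxygen, and complex V (ATP synthase) uses the proton gradient that complexes I, III and IV build. Subunits from the nucleus are joined to those made inside mitochondria, except in complex II, which is wholly nuclear. Naive mESC are known to respire more than primed epiblast cells, which lean on glycolysis.

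Messenger RNAs of nuclear oxidative phosphorylation genes were mostly lower in *Tet iTKO* mESC, by modest amounts. Of the 91 members, 86 averaged 10 normalized counts or more and were tested, and 70 of these fell while 0 rose (limma adjusted p under 0.05, here called a call). Over all 10524 genes tested, 18.4% were called lower and 16.4% higher. In 74 members each *Tet iTKO* line was lower than each *Ctrl* line, against 22.9% of all genes. The median log2 fold change (log2FC) was -0.46 over the members tested and 0.01 over all genes, with members ranging from -0.86 to 0.30. The mean level in *Tet iTKO* was thus 54.6% to 129% of that in *Ctrl*, with a median of 72.6%. No member fell by 1 or more on the log2 scale, and 40 of the calls had a fall of at least 0.5. In bulk RNA, fewer cells of a type and less RNA per cell cannot be told apart.

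Lines of one group resembled each other closely in this respect. The members summed to 111579, 110940 and 112156 normalized counts across *Ctrl* lines, or 2.64%, 2.63% and 2.66% of each library. The *Tet iTKO* lines had 88611, 90258 and 90660, or 2.23%, 2.28% and 2.27%. Relative to the *Ctrl* mean of each gene, the median deviation of the members lay between -0.01 and 0.01 on the log2 scale in *Ctrl* lines and was -0.48, -0.41 and -0.45 in the *Tet iTKO* lines. The groups did not overlap, and they stood apart by far more than the spread of the medians between lines (pooled SD 0.03, n = 3 per group).

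**Figure D1:**
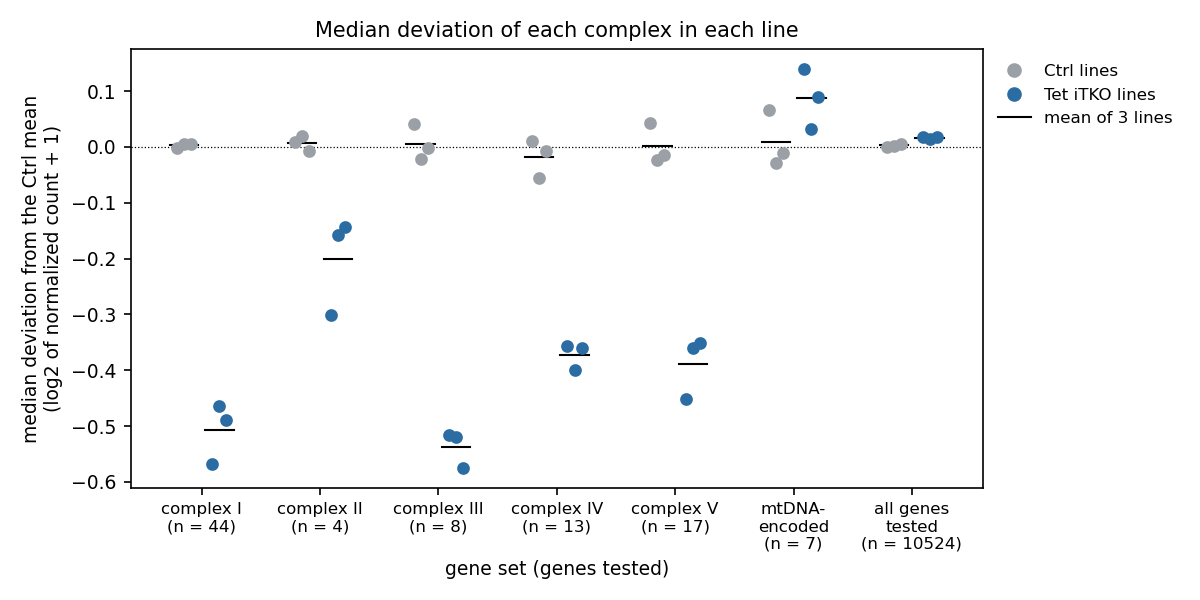
Median deviation (log2 of normalized count + 1) of the genes of each complex from their *Ctrl* mean, 1 point per line, with bars for the mean of 3 lines, beside the mtDNA-encoded subunits and all genes tested. The 3 *Tet iTKO* lines lie below the 3 *Ctrl* lines in all 5 complexes with the deposited normalization, from -0.57 to -0.46 for complex I. For the mtDNA-encoded subunits the groups overlap, with *Tet iTKO* lines between 0.03 and 0.14 and *Ctrl* lines between -0.03 and 0.07.

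The size of the fall went with transcript length, as it did for genes at large. In all tested genes the log2FC had a Spearman coefficient of 0.321 with the log2 length of the principal transcript and of 0.252 with its GC content (n = 10457 genes that share the same 6 libraries, as a description), and in the 86 members the coefficients were 0.303 and 0.036. Members have short mRNAs, and short mRNAs as a class were lower in *Tet iTKO*. Of 630 genes with a principal transcript of up to 1000 bases, 331 were called lower, or 52.5%, with a median log2FC of -0.39. Of the 47 members of that length, 41 were, with a median of -0.52. Between 1000 and 2000 bases, 25 of 30 members and 32.0% of all genes were called lower, with medians of -0.42 and -0.15. Between 2000 and 4000 bases, the counts were 2 of 7 members and 15.4% of all genes, and the medians were -0.09 and 0.03. The 2 members beyond 4000 bases, *Ndufb2* and *Atp5g1*, were both lower, as were 6.26% of all genes of that length.

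**Figure D2:**
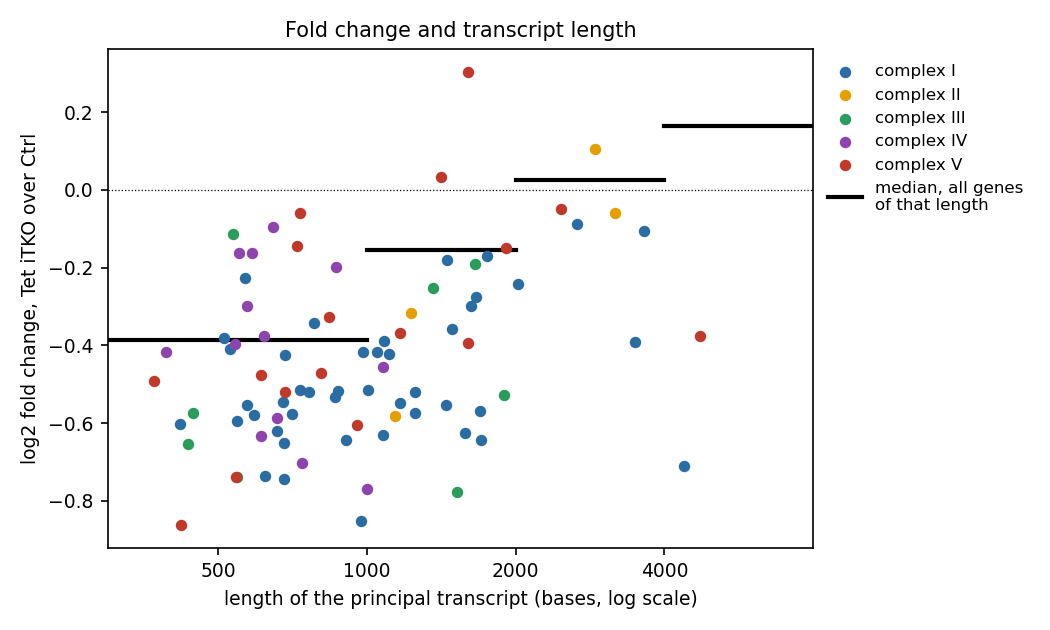
Log2FC of each tested member (*Tet iTKO* over *Ctrl*) against the length of its principal transcript in bases (log axis), coloured by complex, with black lines for the median of all tested genes up to 1000, from 1000 to 2000, from 2000 to 4000 and beyond 4000 bases, the outer classes cut at the axis limits. Most members of up to 2000 bases lie below the line of their length class.

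Fold changes were therefore computed a second time after smoothing each library's deviations from the gene means on transcript GC content and length and subtracting the smooth. Of the members, 33 were then called lower and 8 higher, against 13.9% and 12.5% of all genes, and their median log2FC was -0.13 against 0.01. Of the 70 calls, 32 were kept and 38 were lost, and 1 member was newly called lower. The direction of the group thus remained below that of all genes, but the fall was smaller, and which value is nearer to the change in the cells was not tested. Among the 47 members with a principal transcript of up to 1000 bases, 15 were lower and 7 higher after the correction. Their corrected median was -0.06, close to -0.04 for all 630 genes of that length. Between 1000 and 2000 bases the corrected medians were -0.18 for members and -0.02 for all genes. The direction of the median turned under this correction for complex II (from -0.19 to 0.0011) and complex IV (from -0.40 to 0.08).

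**Figure D3:**
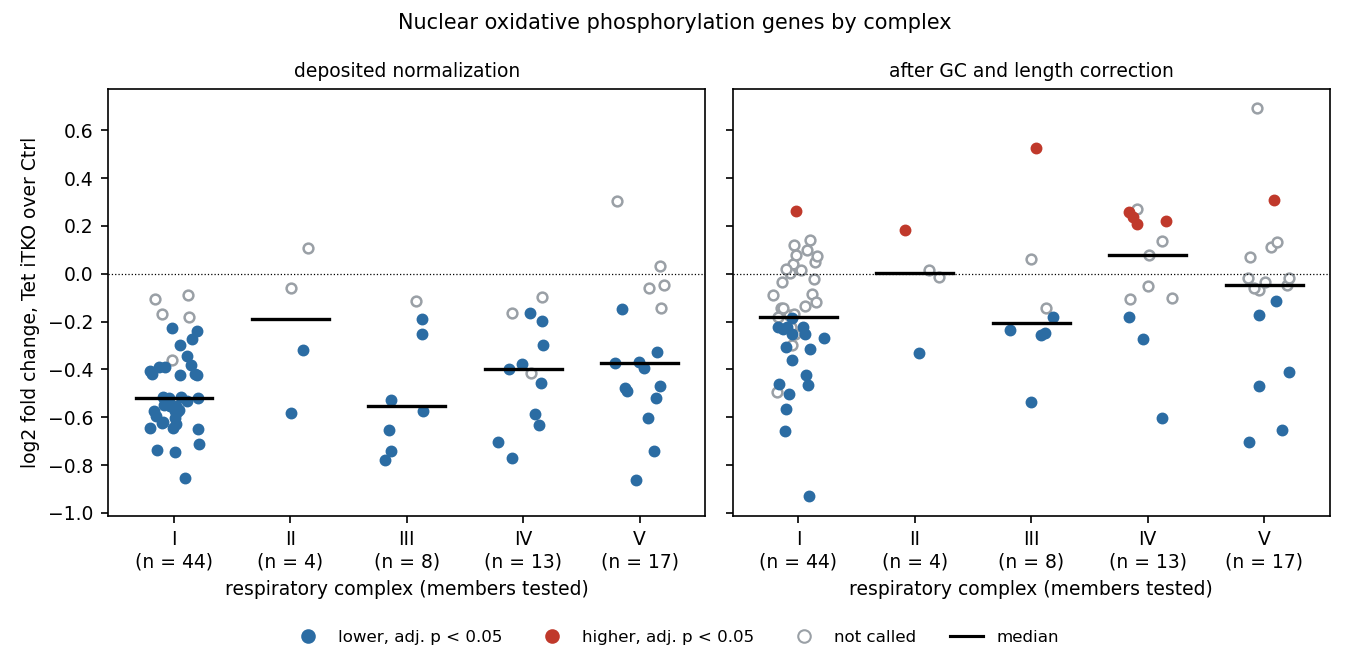
Log2FC of the 86 tested members by complex, 1 point per gene, with the deposited normalization (left) and after the correction for GC content and length (right). Filled points mark an adjusted p under 0.05 and black bars the median, which moves from -0.52 to -0.18 in complex I, from -0.19 to 0.0011 in complex II, from -0.55 to -0.21 in complex III, from -0.40 to 0.08 in complex IV and from -0.37 to -0.05 in complex V.

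Other sets of short mRNAs moved alike. Of 73 cytosolic ribosomal protein genes tested, 69 were lower and 1 was higher, with a median of -0.42, and 38 and 7 were after the correction. Of 76 mitochondrial ribosomal protein genes tested, 58 were lower and 1 was higher, with a median of -0.37, and 34 and 3 were after it. Whether the members differ from these genes was not tested. Markers of other cells also differed between the groups, and their part in the result was not tested. Of 10 feeder fibroblast markers, 5 could be tested and 4 of them were higher, the list summing to 296 to 302 normalized counts in *Ctrl* and 494 to 590 in *Tet iTKO* lines, whereas *Postn*, *Twist2* and *Lum* had at most 8 in any line. All 4 testable markers of 2-cell-like cells were higher, in a list of 8 matched genes that summed to 14 to 29 against 140 to 163. Of 7 primed epiblast markers, 5 could be tested and all 5 were higher, with sums of 2194 to 2263 against 2772 to 2932. *Otx2* and *Krt18* of this list were already reported as raised by the paper from the same libraries, among primed-state and other genes. So was the *Zscan4* cluster, to which *Zscan4c*, *Zscan4d* and *Zscan4f* of the 2-cell-like list belong. Of 8 muscle genes, 3 could be tested and only *Myh6* was higher, with 0, 0 and 1 against 15, 19 and 36, while *Actc1* and *Tnnt2* had at most 1 and the list summed to 47 to 85 against 68 to 93. After the correction 3 feeder markers, all 4 of 2-cell-like cells and 4 of primed epiblast were higher. *Dnmt3b*, a primed epiblast marker, moved from 0.24 to 0.07, not called. *Myh6* was still higher and *Ttn*, another muscle gene, was lower (-0.85).

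The promoters of the members were searched for letters bound by factors known to drive respiratory genes, as a description. RefSeq windows of 300 bases, from 250 before to 50 after the start, were found for 76 members and for 8427 protein-coding genes tested. The letters GCATGCGC of nuclear respiratory factor 1 (NRF1) were present on either strand in 15.8% of the members and 6.9% of those genes, the letters AAGATGGCG of YY1 in 10.5% and 4.08%, and the letters CCGGAAGT of ETS factors such as GABPA in 6.58% and 10.2%. At least 1 of the 3 was found in 31.6% of members and 19.7% of genes, and the NRF1 letters overlap their own reverse complement where GC precedes them. The 12 members with the NRF1 letters had a median log2FC of -0.54 (range -0.74 to -0.06), and the 62 tested members without them one of -0.42. For the ETS letters the medians were -0.52 in 5 members with them and -0.46 in 69 without. For the YY1 letters they were -0.51 in 8 members and -0.44 in 66. These medians take no account of transcript length, and the differences were not tested. The windows below are the 120 bases before the start of the member with the largest fall in its complex whose stretch holds any of the letters, given 5′ to 3′ in the coordinates of GRCm38.p6. Capitals mark NRF1 letters in *Ndufa11*, a membrane-arm subunit of complex I, and in *Sdhb*, and ETS letters, read from the other strand, in *Uqcrh* and *Atp5h*. In complex IV no such stretch held any.
Ndufa11 (complex I, chr17:56717642-56717761, plus strand): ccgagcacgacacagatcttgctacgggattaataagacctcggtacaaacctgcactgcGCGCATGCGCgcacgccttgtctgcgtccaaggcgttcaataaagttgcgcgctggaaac
Sdhb (complex II, chr4:140961151-140961270, plus strand): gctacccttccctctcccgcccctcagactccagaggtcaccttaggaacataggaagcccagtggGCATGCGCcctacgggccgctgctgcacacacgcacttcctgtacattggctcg
Uqcrh (complex III, chr4:116075071-116075190, minus strand): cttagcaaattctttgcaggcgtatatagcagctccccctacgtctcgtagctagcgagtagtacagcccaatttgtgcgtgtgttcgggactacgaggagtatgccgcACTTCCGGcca
Atp5h (complex V, chr11:115419920-115420039, minus strand): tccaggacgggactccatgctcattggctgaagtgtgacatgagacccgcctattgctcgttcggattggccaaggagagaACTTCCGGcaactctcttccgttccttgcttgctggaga

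These 4 genes were picked by the size of their fall, so that their being lower in *Tet iTKO* mESC follows from the choice. *Ndufa11* had 1603, 1494 and 1591 normalized counts across *Ctrl* lines against 1046, 1006 and 1048 in the *Tet iTKO* ones, a log2FC of -0.60. *Atp5h*, the d subunit of the peripheral stalk of ATP synthase, had 1611, 1531 and 1552 against 1023, 1172 and 1084, a log2FC of -0.52. Neither gene's groups overlapped, and the correction left *Ndufa11* at -0.36, still lower, and *Atp5h* at -0.03, not called. A match of letters is a description and not a bound site, and no binding was measured in these lines.

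Complex I, which holds the most members, also had the largest number of lower ones. Of 44 tested, 39 fell (88.6%) and 0 rose, with a median log2FC of -0.52. The share called lower was 87.5% in complex III and 18.4% over all genes tested. After the correction 18 members of complex I were lower and 1 was higher. The median deviation was -0.57, -0.46 and -0.49 in the 3 *Tet iTKO* lines and between -0.002 and 0.006 in *Ctrl* lines. Its genes summed to 29691, 29969 and 30528 normalized counts across *Ctrl* lines against 21412, 22028 and 22173 in the *Tet iTKO* ones, or 72.8% of the *Ctrl* mean. All 29 accessory subunits, which surround the catalytic core, were lower, with a median of -0.57 and a range from -0.85 to -0.23. After the correction 12 of the 29 were lower and *Ndufs6* was higher.

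*Ndufb4*, an accessory subunit of the membrane arm, had the largest fall of complex I, with 136, 128 and 102 normalized counts across *Ctrl* lines against 63, 68 and 69 in the *Tet iTKO* ones. Its log2FC was -0.85 ± 0.19 (SE, n = 3 per group; limma, adjusted p = 0.00064). *Ndufs5*, on the outer face of the membrane arm, had 269, 312 and 279 against 183, 173 and 156, and its log2FC was -0.75 ± 0.12 (limma, adjusted p = 8.3e-06). For both genes the highest *Tet iTKO* line stayed below the lowest *Ctrl* line, and for both the call was lost after the correction (-0.49 and -0.22), though with principal transcripts *Ndufb4* was called (-0.52). *Ndufb7*, chosen after its values were seen, was further from 0 under the correction, with 1001, 876 and 1020 against 590, 617 and 531 and a log2FC of -0.74 that the correction moved to -0.93. Its longest transcript has 4435 bases and its principal one 623, and with principal transcripts in the correction the log2FC was -0.43, still lower.

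Core subunits of complex I, which hold the flavin and the iron-sulfur clusters, were lower in 6 of 7 genes with a median of -0.42, and 5 of the 7 stayed lower after the correction. *Ndufv1*, the subunit that binds NADH, had 1805, 2048 and 2196 normalized counts across *Ctrl* lines against 1684, 1657 and 1643 in the *Tet iTKO* ones, a log2FC of -0.27 ± 0.06 (limma, adjusted p = 0.00044), and its groups did not overlap. *Ndufs1*, the largest subunit of the complex, had 727, 780 and 744 against 714, 673 and 730. These groups overlapped, and the log2FC of -0.09 was not called (limma, adjusted p = 0.38). The gene overlaps *Eef1b2* on the opposite strand, and 28 members in all share exon sequence with a gene on the other strand, from which their reads cannot be told apart. Of the 26 of these that were tested, 20 were lower with a median of -0.44, and of the other 60, 50 were lower with a median of -0.47.

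Assembly factors named Ndufaf, which help build complex I without staying in it, were lower in 4 of 8 genes (*Ndufaf2*, *Ndufaf5*, *Ndufaf6* and *Ndufaf8*), with a median of -0.35. *Ndufaf2*, the only member that shares most of its 50-base stretches with other transcripts (80.9%), is uncertain for that reason. Some such stretches are shared by 46 of the 91 members, *Ndufb4* (37.0%) and *Ndufs5* (31.1%) among them. Of the 45 of these that were tested, 39 were lower with a median of -0.49. Of the 41 tested members that share none, 31 were lower with a median of -0.42. *Ndufaf4* had 110, 102 and 115 normalized counts across *Ctrl* lines against 100, 94 and 110 in the *Tet iTKO* ones, so that the groups overlapped, with a log2FC of -0.11 (limma, adjusted p = 0.68). After the correction only *Ndufaf2* was lower (-0.43), and with principal transcripts in it *Ndufaf2* was not (-0.03). Leaving these factors, *Atp5s* and *Cox7a2l* out, 65 of 76 tested subunit genes fell, with a median of -0.50.

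Complex II, the only complex of the chain with no subunit from mitochondrial DNA, split between its subunits. *Sdhb*, which carries the iron-sulfur clusters, had 1030, 1058 and 1027 normalized counts across *Ctrl* lines against 689, 716 and 676 in the *Tet iTKO* ones. Its log2FC was -0.58 ± 0.07 (limma, adjusted p = 1.8e-08), and it stayed lower after the correction (-0.33). *Sdhd*, a membrane anchor, had 1766, 2037 and 1895 against 1482, 1559 and 1524, a log2FC of -0.32 ± 0.06 (limma, adjusted p = 4.8e-05) that became 0.01 after the correction. The *Sdhc* anchor and *Sdha*, the flavoprotein that oxidises succinate, were not called. *Sdhc* had 673, 592 and 719 against 556, 676 and 672, and *Sdha* had 1225, 1183 and 1113 against 1349, 1147 and 1299. Both overlapped between the groups, with log2FC values of -0.06 and 0.11 (limma, adjusted p = 0.62 and 0.23). Under the correction and under 2 of the 3 other scalings tried, equal totals and quantile normalization, *Sdha* was called higher, by 0.18 to 0.20, and with principal transcripts in the correction it was not (0.15).

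In complex III, 7 of 8 genes fell, with a median of -0.55, and each *Tet iTKO* line was lower than each *Ctrl* line in all 8. *Uqcrq*, a small subunit next to cytochrome b, had 1673, 1679 and 1531 normalized counts across *Ctrl* lines against 914, 931 and 1002 in the *Tet iTKO* ones, a log2FC of -0.78 ± 0.06 (limma, adjusted p = 3.8e-12) and of -0.54 after the correction. *Uqcrh*, the hinge protein near cytochrome c1, had 712, 642 and 682 against 344, 472 and 411, with a log2FC of -0.74 ± 0.09 (limma, adjusted p = 6.3e-08) and of -0.23 after the correction. Both were still called lower with it, but with principal transcripts in the correction *Uqcrh* was not (-0.20).

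The larger subunits of complex III ranged from -0.53 to -0.19. *Uqcrfs1*, the Rieske iron-sulfur protein, had 1255, 1369 and 1334 normalized counts against 1070, 1130 and 1121, a log2FC of -0.25 ± 0.06 (limma, adjusted p = 0.0016) that turned to 0.06, not called, after the correction. *Uqcrc1* and *Uqcrc2* are the core proteins that face the matrix. *Uqcrc1* had 4396, 4375 and 4547 against 3979, 3738 and 3949 (log2FC -0.19, a call lost with equal totals, quantile normalization or no variance trend), and *Uqcrc2* had 1247, 1087 and 1133 against 789, 805 and 804 (log2FC -0.53). Of *Uqcr11*, a small subunit, 1335, 1278 and 1281 normalized counts were found in *Ctrl* and 928, 868 and 821 in *Tet iTKO* lines, a log2FC of -0.57 whose call was kept with the correction (-0.25) and lost with principal transcripts in it (-0.15). *Uqcrb*, also small, was not called with 704, 721 and 703 against 586, 698 and 687, and it was higher by 0.53 after the correction. Its value is therefore the one in complex III that the correction moved most.

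Complex IV passes electrons to oxygen around a core encoded by mitochondrial DNA. Among its 10 ubiquitous nuclear subunits matched by the rule, 9 fell, and in all 10 the groups did not overlap, but after the correction 3 were lower and 4 higher. *Cox7b*, an X-linked subunit, had 818, 710 and 726 normalized counts across *Ctrl* lines against 423, 481 and 417 in the *Tet iTKO* ones, and its log2FC was -0.77 ± 0.08 (limma, adjusted p = 3.3e-09). *Cox6c* had 1096, 937 and 916 against 610, 632 and 566, a log2FC of -0.70 ± 0.08 (limma, adjusted p = 3.6e-09). Both were still lower after the correction, at -0.27 and -0.60, and with principal transcripts in it, at -0.31 and -0.21.

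At the other end of the range stood *Cox5a* and *Cox8a*. *Cox5a*, a matrix-side subunit, had 1688, 1708 and 1778 normalized counts against 1644, 1591 and 1605. The groups did not overlap, yet the log2FC was -0.10 (limma, adjusted p = 0.19), and it was 0.24 after the correction, where *Cox5a* was called higher. *Cox8a* had 2395, 2413 and 2384 against 2096, 2155 and 2175, a log2FC of -0.16 ± 0.05 (limma, adjusted p = 0.012) that turned into a call of 0.22 in the opposite direction. *Cox6a1*, *Cox6b1* and *Cox7a2* were called lower by 0.30, 0.38 and 0.59 on the log2 scale, in each case with no overlap between the groups. *Cox6a1* had 1872, 1886 and 1847 against 1342, 1605 and 1623, *Cox6b1* 1510, 1537 and 1514 against 1114, 1184 and 1217, and *Cox7a2* 1964, 1661 and 1884 against 1193, 1159 and 1312. None of the 3 was called after the correction, where *Cox6b1* stood at 0.14. *Ndufa4* had 1314, 1190 and 1210 against 758, 808 and 828, a log2FC of -0.63, and was called lower after the correction (-0.18) but not with principal transcripts in it (-0.06).

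Several complex IV subunits have isoforms made in muscle, heart or testis. Most of these were scarce in both groups. *Cox8b* was at 0 in all 6 lines, *Cox6a2* and *Cox8c* had at most 1 normalized count in any line, *Cox7b2* had 3, 8 and 5 against 3, 1 and 1, and *Ndufa4l2*, a gene induced by hypoxia, had 3, 6 and 12 against 10, 1 and 7. None of these 5 could be tested. *Cox7a1*, the muscle isoform, had 68, 48 and 87 normalized counts against 55, 42 and 51, and *Cox6b2*, the testis isoform, had 165, 139 and 203 against 149, 148 and 150. For both the groups overlapped, with log2FC values of -0.42 and -0.16 (limma, adjusted p = 0.21 and 0.43). *Cox7a2l*, which takes part in supercomplexes of III and IV, was lower (-0.46), but not called after the correction (-0.10). Outside the naming rule, *Cox4i1*, a large nuclear subunit of complex IV, had 9735, 9944 and 10164 against 6294, 6665 and 6928, a log2FC of -0.59 (-0.29 after the correction, still lower). Its hypoxic isoform *Cox4i2* was near 0, with 1, 0 and 0 against 9, 4 and 5.

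Complex V held both the most abundant and the least changed members. Of 17 tested, 12 fell, with a median of -0.37, and 6 were lower and 1 higher after the correction. Its genes summed to 48798, 48655 and 48962 normalized counts across *Ctrl* lines against 41915, 42561 and 42558 in the *Tet iTKO* ones, 86.8% of the *Ctrl* mean, and without *Atp5a1* and *Atp5b* to 78.4%. *Atp5a1* and *Atp5b* encode the alpha and beta subunits of the F1 head, where ATP is made. *Atp5a1* had 12106, 12698 and 12762 against 11993, 11875 and 12437, with overlapping groups and a log2FC of -0.05 (limma, adjusted p = 0.31). *Atp5b* had 15295, 15127 and 15087 against 13787, 13794 and 13481, a separation with a log2FC of -0.15 ± 0.03 (limma, adjusted p = 0.00066). *Atp5a1* was called higher by 0.11 with quantile normalization and lower after the correction (-0.11), but not with principal transcripts in it (-0.0065), and *Atp5b* was called under none of these.

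The other parts of the F1 head differed among themselves. *Atp5e*, the small epsilon subunit of the central stalk, had 1206, 1159 and 1165 normalized counts across *Ctrl* lines against 643, 633 and 664 in the *Tet iTKO* ones. This was the largest fall of any member, with a log2FC of -0.86 ± 0.07 (limma, adjusted p = 1.9e-12), of -0.65 after the correction and of -0.33 with principal transcripts in it, each called. *Atp5c1*, the gamma subunit, was lower (-0.37), also after the correction (-0.17), but not with principal transcripts in it (-0.02). *Atp5d*, the delta subunit, had overlapping groups and a log2FC of 0.03. Outside the naming rule, *Usmg5*, a membrane subunit, had 1421, 1344 and 1310 normalized counts against 777, 804 and 745. The ATPase inhibitor gene *Atpif1* had 638, 622 and 527 against 404, 398 and 427. Both were called lower without overlap, by 0.81 and 0.53 on the log2 scale. *Usmg5* stayed lower after the correction (-0.59) and with principal transcripts in it (-0.61). *Atpif1* stayed lower after the correction (-0.24) but not with principal transcripts in it (-0.03). All 4 genes of the peripheral stalk, which holds the head still, were lower, with a median of -0.43, and after the correction 0 were, although *Atp5f1* was with principal transcripts in it (-0.18).

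Membrane subunits that shape ATP synthase dimers were lower in 4 of 4 genes, with a median of -0.55. *Atp5l*, the g subunit, had 267, 231 and 230 normalized counts against 142, 173 and 123, a log2FC of -0.74 ± 0.14 (limma, adjusted p = 6.1e-05). It was -0.71 after the correction, where its longest transcript has 6310 bases, but -0.17 and not called with its principal transcript of 544 bases. The proton-carrying c-ring is built from 1 protein that *Atp5g1*, *Atp5g2* and *Atp5g3* encode with different import signals. *Atp5g1* had 1715, 1821 and 1749 against 1287, 1440 and 1351, a log2FC of -0.37 ± 0.06 (limma, adjusted p = 4e-06) and of -0.41 after the correction. *Atp5g2* had 322, 227 and 198 against 239, 233 and 230, with overlapping groups and a log2FC of -0.06 (limma, adjusted p = 0.77), which was 0.14 without *Ctrl* replicate 1. *Atp5g3* had 1921, 1741 and 1773 against 1531, 1659 and 1733. Its groups did not overlap, but its log2FC of -0.14 was not called (limma, adjusted p = 0.056), was called without *Tet iTKO* replicate 3 (-0.18), and turned to a rise of 0.31 after the correction. *Atp5s*, a coupling factor at low level, had 25, 18 and 15 against 16, 37 and 22, a log2FC of 0.30 (limma, adjusted p = 0.61) that became -0.011 without *Tet iTKO* replicate 2.

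**Figure D4:**
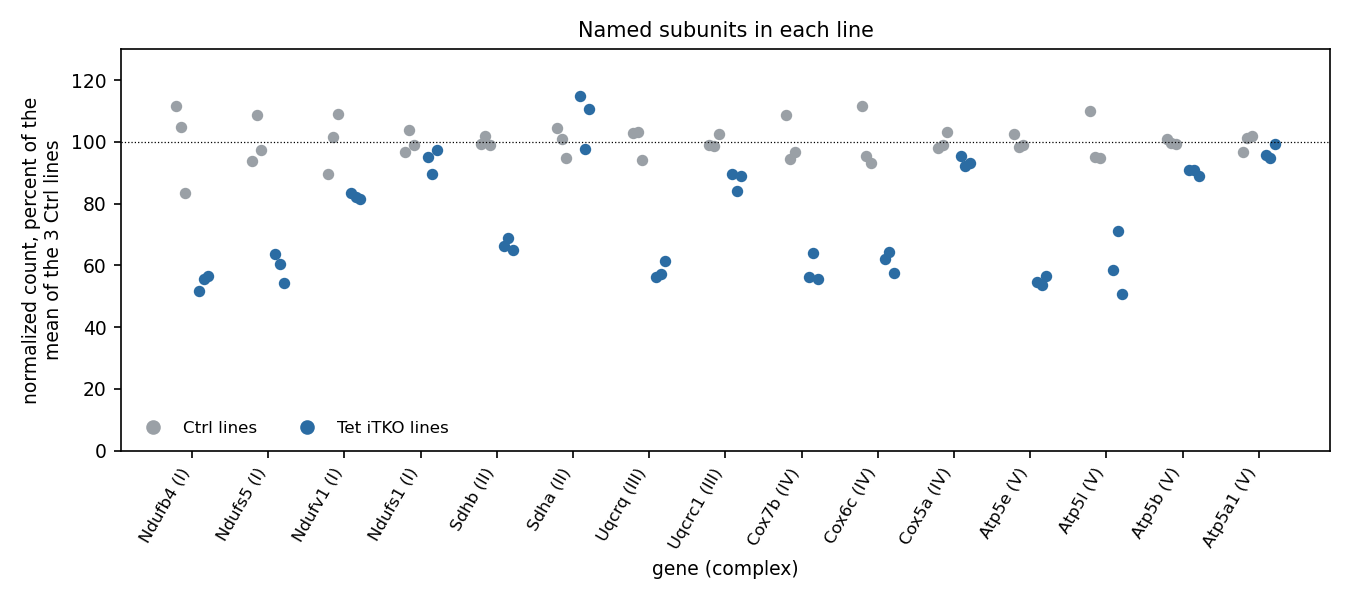
Normalized counts of named subunits in each line, as a percentage of the mean of the 3 *Ctrl* lines, with the complex in brackets (grey, *Ctrl*; blue, *Tet iTKO*). *Atp5e*, *Ndufb4* and *Uqcrq* have *Tet iTKO* means of 55.0%, 54.6% and 58.3%, whereas *Ndufs1*, *Sdha* and *Atp5a1* overlap with *Ctrl*.

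Levels of different genes were compared per kilobase of the longest annotated transcript, in normalized counts per kb averaged over the *Ctrl* lines. Complex V ran from 12.1 for *Atp5s* to 7917 for *Atp5b*, complex IV from 140 for *Cox7a1* to 4359 for *Cox8a*, and complex I from 30.01 for *Ndufaf4* to 2806 for *Ndufa7*, a small accessory subunit. Complex III spanned a narrower range, from 610 for *Uqcrc2* to 2145 for *Uqcr11*, and complex II ran from 209 for *Sdhc* to 1543 for *Sdhd*. The same genes were at the extremes with the principal transcript as the length. With the union of exons, *Ndufb9* and *Atp5a1* were highest in complexes I and V. *Ndufa7* had 1754, 1767 and 1867 normalized counts across *Ctrl* lines against 1276, 1412 and 1373 in the *Tet iTKO* ones, a log2FC of -0.41 that turned to 0.12, not called, after the correction.

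Members lie on 19 chromosomes, and on all 19 their median log2FC was below that of all genes tested on the same chromosome with the deposited normalization. The medians of all genes ran from -0.08 on the X chromosome to 0.07 on chromosome 19. The 3 X-linked members, *Ndufa1*, *Ndufb11* and *Cox7b*, were all lower, with a median of -0.64. *Ndufa1*, a small subunit at the base of the membrane arm, had 243, 278 and 240 normalized counts across *Ctrl* lines against 137, 189 and 178 in the *Tet iTKO* ones (log2FC -0.60), and the correction brought it to 0.05, not called. *Ndufb11* had 498, 457 and 505 against 270, 358 and 311 (log2FC -0.64), and it stayed lower at -0.27. Reads on the Y-linked genes *Ddx3y*, *Eif2s3y*, *Kdm5d* and *Uty* were present in all 6 lines, but not at equal levels. *Eif2s3y* had 363, 344 and 375 against 182, 181 and 178, without overlap. Its log2FC was -0.995 (limma, adjusted p = 5.6e-09) and -0.72 after the correction, still lower. *Ddx3y*, *Kdm5d* and *Uty* were not called, and the cause of this difference was not tested.

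The subunits encoded by mitochondrial DNA, which work inside the same complexes, were not lower. Of 13, 7 could be tested, of which 0 were lower and 4 higher, with a median of 0.10. *mt-Co1*, the catalytic subunit of complex IV, had 30200, 32163 and 31057 normalized counts across *Ctrl* lines against 35031, 34226 and 35141 in the *Tet iTKO* ones, a log2FC of 0.16 (limma, adjusted p = 6.2e-05). *mt-Nd6*, a membrane subunit of complex I, had 1025, 917 and 977 against 1254, 1104 and 1334, the largest rise of the list at 0.34 (limma, adjusted p = 0.00023). In both genes every *Tet iTKO* line exceeded every *Ctrl* line. Together the 13 made up 1.41%, 1.44% and 1.41% of the *Ctrl* libraries and 1.66%, 1.59% and 1.67% of the *Tet iTKO* libraries. After the correction all 7 were higher, with a median of 0.55. *mt-Co2*, *mt-Atp6* and *mt-Atp8* were at 0 in every line and *mt-Co3*, *mt-Nd3* and *mt-Nd4l* had at most 1, although these transcripts are abundant in mouse cells, so that their values say nothing about expression.

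Genes that build or feed the complexes were more mixed. Of 40 further assembly factors, 38 were matched and 36 tested, with 14 lower and 3 higher (4 and 3 after the correction). *Sdhaf4*, which helps mature SDHA, had the largest fall that was called, with 98, 90 and 89 normalized counts against 48, 53 and 45 (log2FC -0.91, limma, adjusted p = 0.0013, and -0.35 after the correction, not called), and *Cox15*, which makes the heme of complex IV, the largest rise, with 193, 221 and 174 against 276, 292 and 308 (log2FC 0.58, limma, adjusted p = 0.00022). Among 21 electron carriers and coenzyme Q synthesis genes, 9 fell and 0 rose, and after the correction 9 were lower and 1 higher. The coenzyme Q methyltransferase gene *Coq3* had 228, 223 and 220 against 100, 120 and 112, a log2FC of -1.01 (limma, adjusted p = 6e-07). Cytochrome c (*Cycs*) was lower too, with 362, 306 and 312 against 212, 235 and 221 (log2FC -0.55), whereas *Cyc1*, the cytochrome c1 of complex III that the naming rule misses, had 2501, 2462 and 2528 against 2310, 2409 and 2463 and was called only after the correction (log2FC -0.06, limma, adjusted p = 0.37, -0.19 with it and 0.03, not called, with principal transcripts in it).

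Regulators of this gene program showed no common direction. Of 20, 18 could be tested, with 2 lower and 3 higher, and a median of -0.01. *Tefm*, the elongation factor of mitochondrial transcription, had 224, 218 and 203 normalized counts against 102, 154 and 163 (log2FC -0.65, limma, adjusted p = 0.00094), and the ribosomal RNA methyltransferase gene *Tfb1m* was also lower (-0.60). *Ppargc1b*, a coactivator of mitochondrial biogenesis, had 5, 35 and 14 against 55, 51 and 68, the largest rise of the list at 1.98 (limma, adjusted p = 0.0003), and *Hif1a* and *Pprc1* were higher by 0.32 and 0.22. After the correction *Ppargc1b* and *Hif1a* were still higher, *Tefm* and *Tfb1m* were not called, and *Pprc1* turned to -0.10, not called. The 2 regulators called lower with it were *Yy1* and *Polrmt*, the mitochondrial RNA polymerase gene, which had 269, 351 and 302 against 298, 288 and 287 and moved from -0.07 to -0.50. *Nrf1*, whose product binds the letters shown above, had 492, 519 and 527 against 496, 457 and 493, and its log2FC of -0.09 was not called (limma, adjusted p = 0.45), with overlapping groups. *Gabpa* (0.21), whose exons overlap *Atp5j* on the other strand, was not called either. *Yy1* had 167, 151 and 157 against 131, 140 and 117, which was not called with the deposited normalization (-0.29) and was called lower after the correction (-0.51), and *Ppargc1a* was at 0 in all lines.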

How the data were processed

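Smart-Seq2 libraries of 3 *Ctrl* and 3 *Tet iTKO* mESC lines were used. Uniquely aligned reads (STAR) were tallied by the authors with HT-Seq, whose strand option was "yes" although the protocol is unstranded, and normalized with DESeq2. The submitters' processing notes name build mm9, HTSeq 0.7.1, R 3.5.2 and DESeq2 1.26.0. The deposited values are scores, namely normalized counts rounded to whole numbers, so no count model was run. Raw depth is not given by these values.

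Identifiers were matched without version to GENCODE M21 (GRCm38): 20775 of 22380 had a symbol. The test was limma 3.58.1 (lmFit, eBayes with trend, R 4.3.3) on log2(normalized count + 1). It covered the 10524 genes that averaged 10 or more, and p was adjusted over all of them by Benjamini and Hochberg. This scale understates changes of low genes. A gene was called at an adjusted p under 0.05. The correction smoothed each library's deviations from the gene means on GC content and log2 length of the longest transcript by robust loess (span 0.3); a repeat with principal transcripts was added after seeing the data. Also tried were a pseudocount of 0.5 or 4, no filter on level, a mean of at least 50, trimmed means of M values, equal totals, quantile normalization, no variance trend, a fold threshold, subunits only, other transcript lengths, a replicate block and each line left out. Lines with the same replicate number did not deviate together, so no block was used. Between libraries of one group, squared differences over summed normalized counts averaged 2.59 to 3.5. For raw counts, Poisson noise alone would give 1, but the sampling noise of normalized counts is not known without the raw depth. An exact permutation test of 3 against 3 cannot give p below 0.1 and was not used. Python 3.11.15, pandas 2.3.3 and NumPy 2.4.6 served for summaries, and the fit was tested on simulated data.

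Values are given for the 2 largest called rises and falls per complex with a mean of at least 50, catalytic subunits, tissue-restricted isoforms and their common counterparts, c-ring paralogs, X-linked members, the extremes per kb and, outside the members, the largest called rise and fall per list; *Ndufb7*, *Uqcrb*, *Cox4i1*, *Cycs*, *Cyc1* and other genes named beyond this were chosen after their values were seen. The members and all lists were chosen with earlier results of these data known. Promoter sequences are from RefSeq (GRCm38.p6).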

Additional observations from a re-analysis of the deposited data

How the results depend on the processing

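With the deposited normalization 70 members were called lower and 0 higher. Leaving out any 1 line gave 67 to 70 lower calls and medians between -0.49 and -0.45 for all members, -0.58 and -0.51 for complex III and -0.43 and -0.37 for complex IV. A fold threshold of 0.5 left 40 lower calls. The trend-free variance left 1 lower call in complex II.

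The choice of scale and the correction moved more. With equal totals, 1 member was called higher (*Sdha*, complex II), and the medians were -0.38 for all members and -0.44, -0.10, -0.47, -0.31 and -0.29 for complexes I to V. With quantile normalization 3 were called higher, 1 in complex II and 2 in complex V, and the medians were -0.41, and -0.46, -0.093, -0.45, -0.31 and -0.25. With the GC and length correction 33 members were lower and 8 higher (median -0.13). In complexes I to V, 18, 1, 5, 3 and 6 were lower, 1, 1, 1, 4 and 1 higher, and the medians were -0.18, 0.0011, -0.21, 0.080 and -0.047. With principal transcripts 28 were lower and 7 higher (median -0.12). There 18, 1, 3, 2 and 4 were lower, 1, 0, 1, 4 and 1 higher, and the medians were -0.19, -0.031, -0.17, 0.12 and -0.031.

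Lines with the same replicate number did not deviate together, and the correlations of their deviations were 0.0007, -0.0054 and -0.0031. A replicate block gave 71 lower calls and 0 higher. With the block and the correction there were 33 lower and 9 higher calls, 2 of the latter in complex V, with the medians of the correction alone.

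Of 647 repeats for the 36 named members tested, 556 left direction and call as they were, 31 lost a call, 10 gained one and 50 changed sign. The correction, with or without the block, and then the principal transcripts gave 0.077 and 0.046 for *Ndufs1*, 0.059 and 0.026 for *Uqcrfs1*, 0.24 and 0.41 for *Cox5a*, 0.14 and 0.12 for *Cox6b1*, 0.22 and 0.21 for *Cox8a*, 0.27 and 0.26 for *Cox6b2*, 0.080 and 0.13 for *Cox7a1*, 0.11 and 0.28 for *Atp5g2*, 0.31 and 0.31 for *Atp5g3*, 0.050 and 0.032 for *Ndufa1*, 0.12 and 0.053 for *Ndufa7*, and 0.076 and 0.079 for *Ndufaf4*. *Sdhd* was at 0.014 with the correction and *Cox6a1* at 0.055 with principal transcripts only. Quantile normalization gave 0.0025 for *Ndufs1*, 0.018 for *Cox5a*, 0.11 for *Atp5a1* and 0.023 for *Sdhc*. Equal totals gave 0.036 for *Atp5a1*, 0.026 for *Atp5g2* and 0.024 for *Sdhc*. Leaving out 1 line at a time, *Sdhc* ranged from -0.14 to 0.032, with 0.0021 without *Ctrl* replicate 3 and 0.032 without *Tet iTKO* replicate 1, *Atp5g2* was at 0.14 without *Ctrl* replicate 1 and *Atp5s* ranged from -0.011 without *Tet iTKO* replicate 2 to 0.57. The cause of these changes was not tested.

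The median level per kb in *Ctrl* moved to 374 for complex II with the union of exons, and to 2030 and 1679 for complexes IV and V with principal transcripts. With 3 lines per group, small differences in low genes such as *Atp5s* could not be resolved.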
